A study of Mus musculus with 4 samples.

Results

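The 9 genes described here are Jun, Junb, Jund, Fos, Fosb, Dusp1, Ppp1r15a, Klf6 and Cd69, taken by symbol from the 32285 genes in the count matrices of 4 droplet libraries. They are AP-1 subunits and other genes that T cells switch on within minutes of a receptor signal or of stress. The T cells were sorted for surface CD3 from subcutaneous tumors of Tsc2-deficient 105K cells, a mouse kidney tumor line, grown in wild-type C57BL/6J male mice injected at 6 weeks of age. In the control group (sh-NC, n = 2 libraries) the tumor cells carried a non-targeting short hairpin RNA, and in the knockdown group (sh-B7-H3 (1), n = 2) a hairpin against B7-H3, an immune checkpoint protein. Tumor cells of both groups lacked Tsc2, and T cells of both groups were genetically unmodified. The hairpin acts in the tumor cells, so the sorted T cells hold no check of the knockdown. Each group was a pool of 80 tumors. The sources differ on its libraries, which the series' design text gives as duplicate lanes and the study's figure legends as independent samples, so the p-values may measure only technical spread and do not speak of other mice. Tumors were dissociated in portions and then pooled by group before sorting. The study's methods do not say whether tumors of both groups were dissociated together. The hairpin and the handling of a group, before and after pooling and with dissociation included, thus cannot be told apart.

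AP-1 is a transcription factor made of a Jun protein paired with another Jun or with a Fos protein. Its genes are transcribed briefly after growth factor, antigen receptor or stress signals through MAP kinases, and their messages decay fast. Dusp1 encodes a phosphatase that switches MAP kinases off, and Ppp1r15a (GADD34) a phosphatase subunit that restores translation after stress. Klf6 encodes a Kruppel-like transcription factor, and Cd69 an early activation protein of the T cell surface that holds cells in tissue by antagonising the egress receptor S1P1. The same genes are also known to be induced while tissue is taken apart into single cells.

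Cells were put into classes by UMIs, the single RNA molecules counted per cell. Cd4 cells had at least 1 Cd4 UMI, Cd8 cells at least 3 Cd8a or Cd8b1 UMIs, and Foxp3 cells, the regulatory T cells, both Cd4 and Foxp3. Each lineage was divided by Ccl5, a chemokine of effector and memory T cells, at 20 UMIs. In all 13009 of 38860 called cells fell into a class. Cd4 cells with low Ccl5 numbered 1620 and 1325 (control) and 453 and 590 (knockdown), and Cd8 cells with low Ccl5 2132, 1775, 382 and 602 in that order. Cd4 cells with high Ccl5 numbered 132, 135, 406 and 514, and Cd8 cells with high Ccl5 373, 415, 681 and 861. Foxp3 cells with low Ccl5 numbered 167, 169, 109 and 111. Foxp3 cells with high Ccl5 numbered 9 to 23 per library.

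The libraries held 79224898 to 132820909 RNA UMIs, and pairs of libraries shared 17 to 35 cell barcodes. T cell markers (Cd3d, Cd3e, Cd3g, Trac and Trbc2) summed to 4710 to 9620 CPM (UMIs counted relative to the total of a library's class) in the 5 larger classes, and Cd4 was at 0 in both Cd8 classes by the rule that chose them. Several measures moved with the group in these classes. Gm42418, a gene that overlaps ribosomal RNA, stood at 4470 to 6860 CPM in control and 25400 to 38300 in knockdown libraries. The sum of 10 myeloid markers stood at 13.4 to 51.4 in control and 59.1 to 100 in knockdown libraries, with 1 of the 10 at 0 in Foxp3 cells with low Ccl5 and none at 0 elsewhere. The sum of 6 effector T cell markers (Ccl4, Ccl3, Gzmk, Gzmb, Nkg7 and Ifng) was 137 and 148 in control and 1150 and 853 in knockdown libraries in Cd4 cells with low Ccl5, 754 and 761 against 1230 and 1020 in Cd8 cells with low Ccl5, and 6270 and 6280 against 8120 and 7870 in Cd8 cells with high Ccl5. In Cd4 cells with high Ccl5 it was 16500 and 14300 against 13800 and 12700. The sum of 4 regulatory T cell markers (Foxp3, Il2ra, Ikzf2 and Ctla4) was 50.6 and 59.2 against 110 and 120 in Cd4 cells with low Ccl5. B cell markers reached at most 26.7 and NK cell markers at most 3.94. Mitochondrial RNA was higher in the knockdown libraries of every class, for example 46500 and 47500 against 41700 and 40800 in Cd4 cells with low Ccl5. The part of these differences in the results below was not tested.

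Known signal-response elements were looked for near the RefSeq start sites of these genes, and the sequences of the 5 members with a match are shown. The cyclic AMP response element (CRE, TGACGTCA), its shorter form TGACGT, the variant TGACATCA, the AP-1 site TGACTCA and the CArG box of serum response factor were searched on both strands in RefSeq promoter windows (GRCm38.p6, 250 bases before to 50 after the start). A full CRE also counts as its shorter form. Windows were given for 8 of the 9 members, and Cd69 had none. The windows follow RefSeq starts, which for Jund and Dusp1 lie far from the outer GENCODE start given below for the gene. Neither the Jund nor the Dusp1 window covers that start. The 200 bases before the start are given for Jun and Fos, with the matched letters in capitals.
Jun, chr4:95052223-95052422, minus strand: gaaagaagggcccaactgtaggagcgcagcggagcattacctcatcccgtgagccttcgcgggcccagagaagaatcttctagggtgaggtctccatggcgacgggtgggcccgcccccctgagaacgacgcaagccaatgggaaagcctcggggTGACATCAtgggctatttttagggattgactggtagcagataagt
Fos, chr12:85473690-85473889, plus strand: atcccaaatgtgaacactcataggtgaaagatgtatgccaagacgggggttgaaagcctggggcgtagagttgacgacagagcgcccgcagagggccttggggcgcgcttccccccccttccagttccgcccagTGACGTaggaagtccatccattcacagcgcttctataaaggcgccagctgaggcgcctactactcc
For Dusp1, Ppp1r15a and Klf6 the 30 bases around the match are given.
Dusp1, chr17:26508597-26508626, minus strand: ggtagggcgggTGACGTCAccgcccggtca
Ppp1r15a, chr7:45526262-45526291, minus strand: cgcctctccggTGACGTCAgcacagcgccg
Klf6, chr13:5861359-5861388, plus strand: ttggtgcgagcTGACATCAtcgtcgcgcag
The CRE was in 2 of the 8 windows (Dusp1 and Ppp1r15a) and in 1.79% of 32841 windows of all genes. The shorter TGACGT was in 3 of 8 (Fos as well) and 7.51% of all. TGACATCA was in 2 of 8 (Jun and Klf6) and 3.62% of all. The AP-1 site, in 5.20% of all windows, and the CArG box, in 1.63%, were in none of the 8. Only the letters TGACTCA were counted as the AP-1 site. Bases more than 250 before a start were not searched, so a gene may have such a site further out. These matches are letters in a window and not measured sites.

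**Figure D1:**
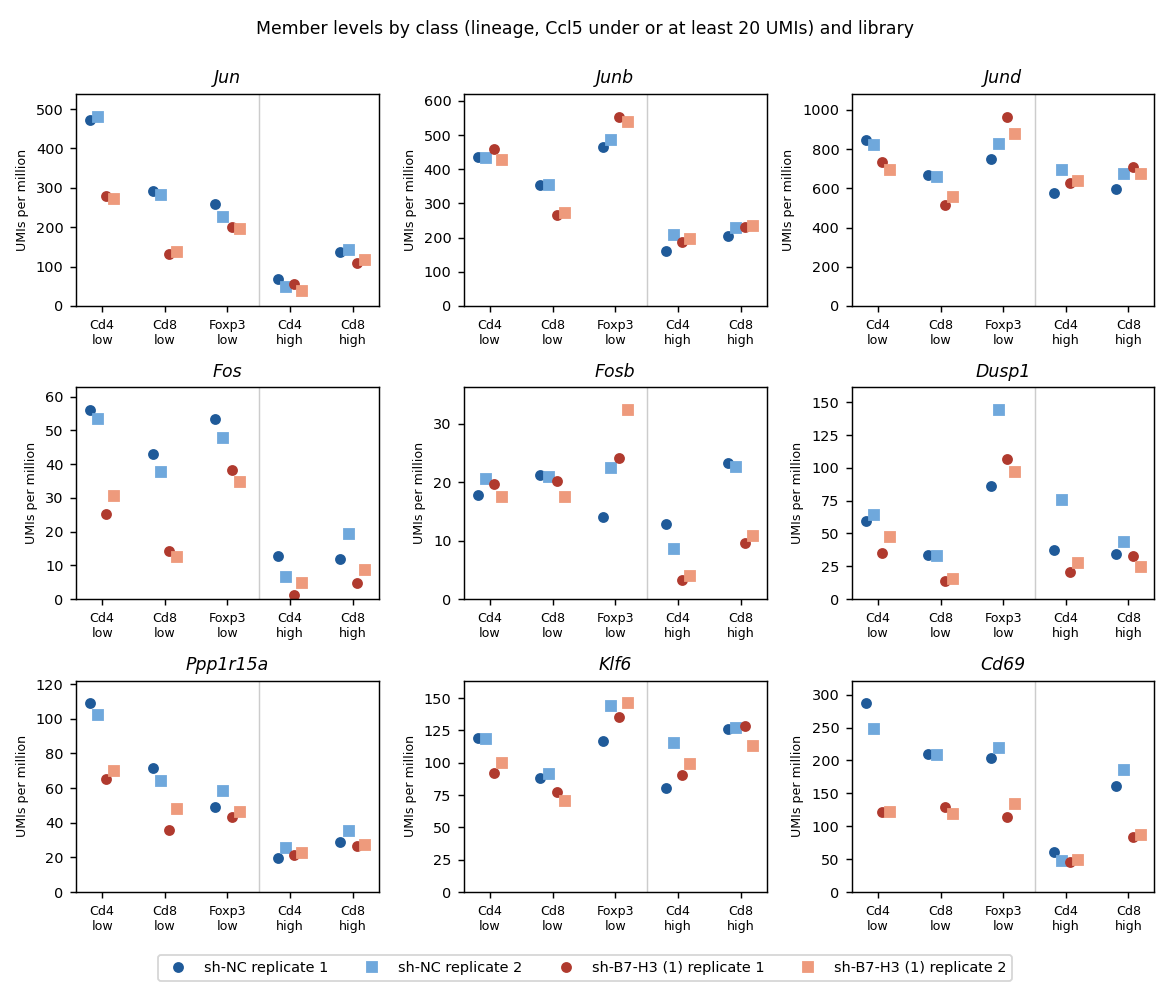
Level of each member in CPM (vertical axis) in 5 classes of cells (horizontal axis: lineage, and Ccl5 under 20 UMIs, low, or at least 20, high), with 1 point per library. Jun, Fos and Cd69 points of the knockdown libraries sit below those of the control libraries in all 3 low classes, while Jun falls away in the high Cd4 class in both groups.

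In Cd4 cells with low Ccl5, 7 of the 9 members were lower in the knockdown libraries, and the test called 4.69% of all 10433 genes lower there. The median member log2 fold change was -0.53, beside 0.0041 over all genes tested. Among Cd8 cells with low Ccl5, 8 of 9 members were lower, with 3.08% of 10678 genes called lower, and the median member change was -0.62 beside 0.001. No member was called higher in either class, where 5.81% of genes in Cd4 and 3.49% in Cd8 cells were. Each fold change is from edgeR's quasi-likelihood test on UMIs summed per library and class, called at an adjusted p under 0.05 over all genes tested. Fewer cells with a message and less message per cell cannot be told apart in these sums.

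Jun, the partner shared by most AP-1 pairs, lies at chr4:95049034-95052222 (GRCm38). In Cd4 cells with low Ccl5 its control libraries gave 473 and 480 CPM against 278 and 271 for those of the knockdown. The groups lay far apart (log2 fold change -0.77, SE 0.0438, edgeR adjusted p = 2.44e-21). Its level in Cd8 cells with low Ccl5 was 293 and 283 in control and 133 and 137 in knockdown libraries (log2 fold change -1.06, SE 0.0483, edgeR adjusted p = 2.88e-10). The knockdown levels of Jun in Cd8 cells were thus 0.469 of the control levels, and in Cd4 cells 0.577. This difference between lineages was not called (log2 difference -0.29, edgeR adjusted p = 0.191), although it was without sh-NC replicate 2 (-0.33, adjusted p = 0.0303) and under 3 other choices of cells, such as no UMI of the other lineage (-0.39, adjusted p = 0.00094).

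Fos, which binds DNA only as a partner of a Jun protein, lies at chr12:85473890-85477273. Its level in Cd4 cells with low Ccl5 was 56.0 and 53.4 in control and 25.3 and 30.4 in knockdown libraries (log2 fold change -0.93, SE 0.115, edgeR adjusted p = 5.26e-09). Among Cd8 cells with low Ccl5 it was 43.0 and 37.6 in control and 14.3 and 12.6 in knockdown libraries, the lowest ratio of any member in the low classes at 0.334 (log2 fold change -1.58, edgeR adjusted p = 2.05e-06). Those knockdown values rest on 36 and 51 Fos UMIs, against 643 and 493 in the control libraries. Fosb, its close relative at chr7:19302696-19310051, stood at 17.7 and 20.6 against 19.7 and 17.5 in Cd4 cells with low Ccl5 and was not called there (log2 fold change -0.02, SE 0.161) or in Cd8 cells with low Ccl5 (-0.15, SE 0.141).

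Junb and Jund, the other Jun proteins, moved less than Jun. Junb (chr8:84974484-84978718) stood at 436 and 432 in control and 458 and 427 in knockdown libraries in Cd4 cells with low Ccl5, so the groups overlapped. Cd8 cells with low Ccl5 differed: it fell from 353 and 354 to 265 and 273 (log2 fold change -0.36, edgeR adjusted p = 1.06e-05). The change of Junb differed between the 2 lineages (log2 difference, Cd8 minus Cd4, -0.41, edgeR adjusted p = 0.00243), in a comparison that called 1.33% of genes. That call was lost without sh-B7-H3 (1) replicate 1 (adjusted p = 0.199) or replicate 2 (adjusted p = 0.0571). With cells thinned to 1000 UMIs the Junb difference between lineages was not called (-0.43, edgeR adjusted p = 0.408). Jund (chr8:70698949-70700616), whose message is known to vary less with stimulation, fell by 0.20 on the log2 scale in Cd4 and by 0.27 in Cd8 cells with low Ccl5.

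The feedback genes were lower in both classes. Dusp1 (chr17:26505590-26562128) stood at 59.4 and 63.7 in control and 34.9 and 47.0 in knockdown libraries in Cd4 cells with low Ccl5 (log2 fold change -0.53, edgeR adjusted p = 0.00014), a call lost in cells with no UMI of the other lineage (-0.39, adjusted p = 0.0614). For Cd8 cells with low Ccl5 it stood at 33.9 and 32.7 in control and 13.9 and 15.3 in knockdown libraries (-1.15, edgeR adjusted p = 2.04e-05). Ppp1r15a (chr7:45522916-45526268) stood at 109 and 102 against 65.4 and 69.9 in Cd4 cells and at 71.6 and 64.0 against 36.1 and 48.2 in Cd8 cells with low Ccl5. Its groups did not overlap in either class, with log2 fold changes of -0.61 and -0.62. Klf6 (chr13:5861482-5870394) moved little, as Jund did, at -0.27 in both classes. In Cd4 cells its call was lost without sh-B7-H3 (1) replicate 1 (adjusted p = 0.0922) with DESeq2 (0.227) and with no UMI of the other lineage (0.253), and in Cd8 cells without sh-NC replicate 1 (0.0694), without sh-NC replicate 2 (0.162), without sh-B7-H3 (1) replicate 2 (0.457) and with DESeq2 (0.185).

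Cd69 (chr6:129267325-129275436) had the largest change of any member in Cd4 cells with low Ccl5. Its level there was 287 and 248 in control and 121 and 122 in knockdown libraries (log2 fold change -1.11, SE 0.0628, edgeR adjusted p = 1.54e-21). The corresponding Cd8 levels were 210 and 208 against 129 and 118 (-0.75, SE 0.0536, edgeR adjusted p = 1.29e-07). Jun and Cd69 kept their calls in both low classes in each of 19 refits. With a fold limit of 1 on the log2 scale, Jun in Cd4 and Cd69 in Cd8 cells no longer passed. With each cell thinned to 1000 UMIs, which leaves far fewer counts, Jun and Cd69 stayed called in Cd4 cells and 5 members in Cd8 cells.

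**Figure D2:**
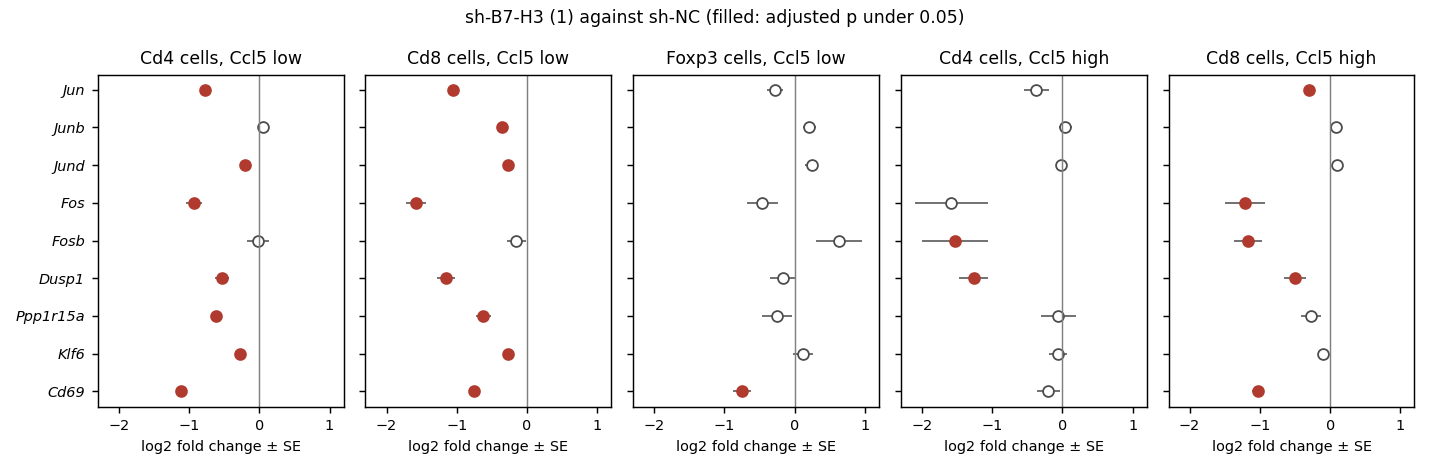
Log2 fold change of each member, sh-B7-H3 (1) against sh-NC (horizontal axis, with its standard error), in 5 classes of cells; filled points passed an adjusted p of 0.05 in edgeR's test. In Cd8 cells with low Ccl5 all but Fosb are filled on the negative side, whereas in Foxp3 cells only Cd69 is filled, at -0.75.

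The Ccl5-low classes of the 2 groups differed in Ccl5 as well. Within Cd4 cells with low Ccl5, Ccl5 itself stood at 32.4 and 30.9 in control and 298 and 360 in knockdown libraries. Free RNA, from barcodes not called as cells, held 1220 and 1460 CPM of Ccl5 in control and 3930 and 3770 in knockdown libraries. How much of the Ccl5 counted in Cd4 cells with low Ccl5 was free RNA was not tested. Of these cells 1406 of 1620 and 1097 of 1325 control cells had no Ccl5 UMI, against 146 of 453 and 166 of 590 knockdown cells. Among cells with no Ccl5 UMI at all, Jun stood at 403 and 425 in control and 249 and 250 in knockdown libraries for Cd4 cells. For Cd8 cells with no Ccl5 UMI it stood at 225 and 219 against 109 and 125. Cd69 in those Cd4 cells stood at 246 and 220 against 93.8 and 104, and the groups did not overlap.

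Among Foxp3 cells with low Ccl5, Cd69 was the member called, at 203 and 219 in control and 114 and 134 in knockdown libraries (log2 fold change -0.75, SE 0.131, edgeR adjusted p = 0.00151), where 0.508% of 7281 genes were called lower. The call was lost without sh-B7-H3 (1) replicate 1 (-0.63, adjusted p = 0.115), with a replicate block (-0.75, adjusted p = 0.062) and with cells thinned to 1000 UMIs (-0.74, adjusted p = 0.546). Jund stood at 750 and 826 against 964 and 879, Junb at 465 and 485 against 553 and 539, and Klf6 at 117 and 144 against 135 and 146. None of these 3 was called. The test of the difference from Cd4 cells called 1 of 9 members, Jund, and 0.838% of genes. Jun (0.46, edgeR adjusted p = 0.0771), Fos (0.47, adjusted p = 0.716) and Cd69 (0.34, adjusted p = 0.555) were not called. The Jun difference was called with mitochondrial UMIs up to 10% (0.57, edgeR adjusted p = 0.00279) and at a Ccl5 limit of 40 (0.59, adjusted p = 0.00477). The change of Jund was higher in Foxp3 than in Cd4 cells by 0.41 on the log2 scale (edgeR adjusted p = 0.00705). That call was lost without sh-NC replicate 1 (adjusted p = 0.0562), sh-B7-H3 (1) replicate 1 (0.515) or sh-B7-H3 (1) replicate 2 (0.359), with no UMI of the other lineage (0.39, adjusted p = 0.144) and with cells thinned to 1000 UMIs, where the difference was 0.11 (adjusted p = 0.99). Fos (-0.46, SE 0.225), with 27 to 72 UMIs per library, was not called either.

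In Cd8 cells with high Ccl5, 5 of 9 members were lower in the knockdown libraries, where 5.57% of 9544 genes were called lower. They were Jun, Fos, Fosb, Dusp1 and Cd69. Cd69 had the smallest p, at 161 and 186 in control and 84.1 and 87.5 in knockdown libraries (log2 fold change -1.03, SE 0.0783, edgeR adjusted p = 8.11e-11). Fosb, which was not called in either low class, stood at 23.2 and 22.5 against 9.59 and 10.8 (-1.17, SE 0.201, edgeR adjusted p = 0.00013). Fos stood at 11.8 and 19.3 against 4.67 and 8.61 and Jun at 136 and 142 against 109 and 117. The calls of Fos (-0.80, adjusted p = 0.143), Jun (-0.27, 0.0756) and Dusp1 (-0.32, 0.351) were lost without sh-NC replicate 2. Jun's was also lost without sh-B7-H3 (1) replicate 1 (0.0696) and Dusp1's without sh-B7-H3 (1) replicate 2 (0.409). Jund, not called (0.10), was called higher without sh-NC replicate 2 (0.19, adjusted p = 0.0101).

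In Cd4 cells with high Ccl5, 2 of 9 members were called lower, Dusp1 and Fosb, with 2.47% of 8734 genes called lower. Dusp1 stood at 37.3 and 75.8 in control and 20.6 and 27.1 in knockdown libraries (log2 fold change -1.26, edgeR adjusted p = 8.98e-06), and its call was lost without sh-NC replicate 2 (-0.66, adjusted p = 0.206). Fosb stood at 12.8 and 8.53 against 3.32 and 4.02, from 9 to 15 UMIs per library. Its call (-1.53, edgeR adjusted p = 0.0428) was lost on leaving out any of the 4 libraries, with adjusted p of 0.48 without sh-NC replicate 1, 0.0935 without sh-NC replicate 2, 0.645 without sh-B7-H3 (1) replicate 1 and 0.591 without sh-B7-H3 (1) replicate 2. Fos stood at 12.8 and 6.63 against 1.33 and 4.82, from 4 to 18 UMIs per library, and was not called (-1.58, edgeR adjusted p = 0.0646). It was called with a replicate block (adjusted p = 0.0339), with crossed replicate numbers (0.0472, where Fosb was lost at 0.0527) and with no filter on low counts (0.0468). Cd69 in this class stood at 60.9 and 47.4 against 45.5 and 49.6, so its groups overlapped. Foxp3 cells with high Ccl5 gave no call among the 5 members tested, with 0.293% of 1363 genes called lower.

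The difference in response between low and high Ccl5 was tested directly, as the change with the knockdown in high minus that in low cells. In Cd4 cells 1 of 9 members was called, Cd69 (log2 difference 0.91, SE 0.17, edgeR adjusted p = 6.01e-05), where 3.88% of genes were called. In Cd8 cells 4 of 9 were called, where 4.31% of genes were called. The difference was 0.75 for Jun (SE 0.0952), which fell less in high cells, and 0.44 for Junb (SE 0.0754) and 0.36 for Jund (SE 0.0515), which fell in low cells and were not called in high cells (0.08 and 0.10). With cells thinned to 1000 UMIs, the calls of Cd69 in Cd4 cells (0.90, adjusted p = 0.438) and of Jun (0.57, adjusted p = 0.403) and Junb (0.57, adjusted p = 0.167) in Cd8 cells were lost. Fosb (-1.03, SE 0.261, edgeR adjusted p = 0.00357) had the larger fall there, a call that was lost without sh-B7-H3 (1) replicate 1 (-0.83, adjusted p = 0.172), at a Ccl5 limit of 40 (-0.87, adjusted p = 0.0697) and with cells thinned to 1000 UMIs (-1.07, adjusted p = 0.823). The effect on Cd69 in Cd8 cells was not called different (-0.29, edgeR adjusted p = 0.0662), and the difference was -0.40 without sh-NC replicate 1. It was called with mitochondrial UMIs up to 10% (-0.30, adjusted p = 0.0216) and with no upper limit on detected genes (-0.34, 0.0289). A Ccl5 limit of 10 (-0.37, 0.00772) and no macrophage or B cell UMI (-0.39, 0.0276) also gave a call.

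Cd4 cells with high Ccl5 held far less of most members. With the libraries as a block, 8 of 9 members were lower in Cd4 cells with high than with low Ccl5. This comparison called 26.4% of 10219 genes lower. Jun fell by 2.74 on the log2 scale (SE 0.114, edgeR adjusted p = 7.68e-10), Fos had -2.82, Ppp1r15a -1.84, Cd69 -1.75, Fosb -1.68 and Junb -1.21. Jund (-0.28) and Dusp1 (-0.45) were called with small changes, and Dusp1 lost its call without sh-NC replicate 1 (adjusted p = 0.109), sh-B7-H3 (1) replicate 1 (0.124) or sh-B7-H3 (1) replicate 2 (0.205). Klf6, at 119 and 118 against 80.6 and 115 in the control libraries, was not called (-0.13, edgeR adjusted p = 0.226). The median member change was -1.68, beside 0.0006 over all genes.

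In Cd8 cells the members parted. Jun (-0.67), Junb (-0.45), Fos (-1.20), Ppp1r15a (-0.87) and Cd69 (-0.37) were lower in cells with high Ccl5, where 27.3% of 10361 genes were called lower. Klf6 (0.60, SE 0.0585, edgeR adjusted p = 2.02e-06) and Dusp1 (0.48, SE 0.134, edgeR adjusted p = 0.00846) were higher, where 27.6% were called higher. Klf6 went from 88.5 and 91.4 to 126 and 127 with the control hairpin and from 77.0 and 70.4 to 128 and 113 with the B7-H3 hairpin. In Foxp3 cells 2 of 9 members were lower with high Ccl5, Jun (-1.70) and Cd69 (-1.13), where 1.55% of 5884 genes were called lower. Jun rested on 4 to 14 UMIs per library in cells with high Ccl5, and its call was lost with no upper limit on detected genes (-0.80, adjusted p = 0.0647) and with cells thinned to 1000 UMIs (-1.25, adjusted p = 0.381). Cd69's call was lost without sh-NC replicate 2 (-1.08, adjusted p = 0.0674), sh-B7-H3 (1) replicate 1 (-0.92, adjusted p = 0.118) or sh-B7-H3 (1) replicate 2 (-1.13, adjusted p = 0.068).

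**Figure D3:**
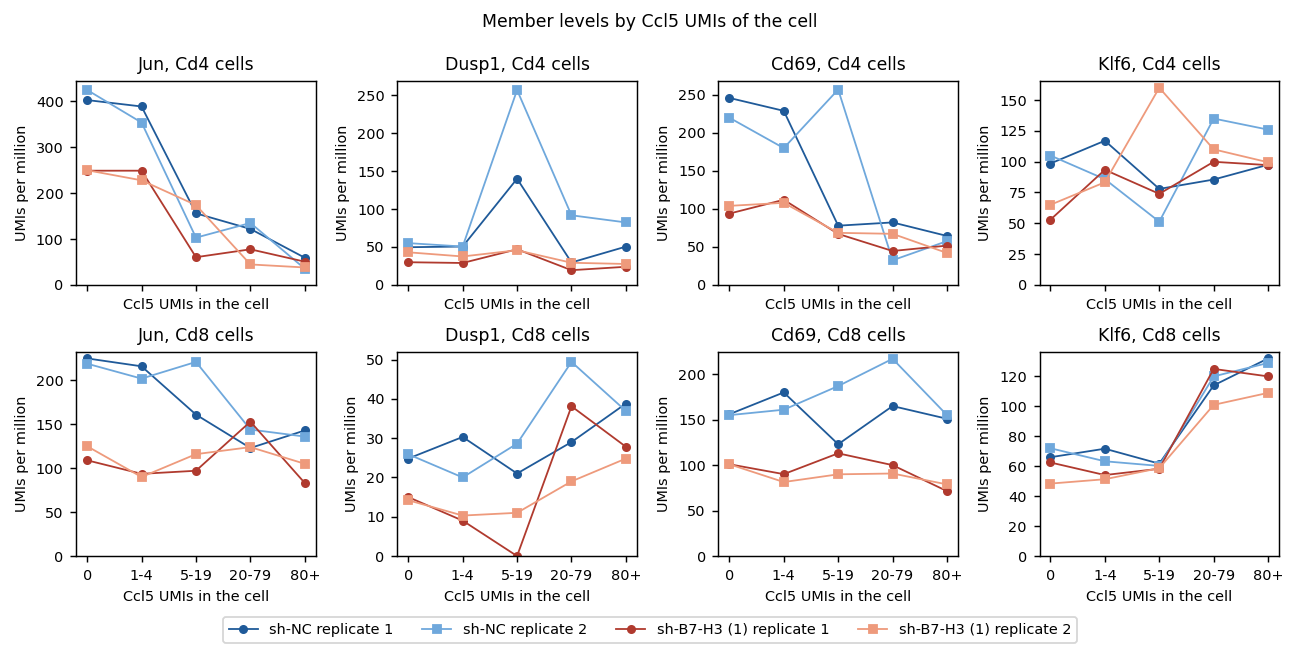
Levels of Jun, Dusp1, Cd69 and Klf6 in CPM (vertical axis) in Cd4 cells (top) and Cd8 cells (bottom) by the number of Ccl5 UMIs in the cell (horizontal axis), with 1 line per library. Jun in Cd4 cells drops from 403 and 425 at 0 Ccl5 UMIs to 59.2 and 35.3 at 80 or more in the control libraries, and the groups meet at that end.

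Jun in Cd4 cells was lower at high Ccl5 counts. It stood at 403 and 425 at 0 Ccl5 UMIs, 389 and 354 at 1 to 4, 156 and 103 at 5 to 19, 122 and 135 at 20 to 79 and 59.2 and 35.3 at 80 or more (control). In the knockdown libraries the same counts gave 249 and 250, 249 and 228, 60.4 and 174, 77.6 and 44.6, and 50.6 and 38.0. The groups did not overlap at 0, 1 to 4 and 20 to 79 UMIs, and overlapped at 5 to 19 and at 80 or more. Few cells lay just under the limit of 20, with 4 to 60 Cd4 and 31 to 81 Cd8 cells per library at 5 to 19 UMIs. The values of Cd4 cells in that bin, from 11 and 4 control cells, were scattered, with Dusp1 at 140 and 257 in control and 47.0 and 45.7 in knockdown libraries.

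Among the low classes, 8 of 9 members were lower in Cd8 than in Cd4 cells (libraries as a block, 16.5% of 10920 genes called lower). Dusp1 (-1.02, SE 0.0907) and Jun (-0.84, SE 0.0493) had the largest log2 fold changes, and Fosb (0.10) was not called. Cd69 (-0.25) lost its call without sh-NC replicate 1 (-0.14, adjusted p = 0.119). Foxp3 cells carried a different mix of the members from Cd4 cells. Jun (-0.72) and Ppp1r15a (-0.79) were lower, with 16.7% of 9430 genes called lower. Dusp1 (1.09, SE 0.114, edgeR adjusted p = 3.89e-08), Klf6 (0.35), Junb (0.26) and Jund (0.18) were higher, with 19.5% called higher. Jund's call was lost without sh-NC replicate 2 (0.22, adjusted p = 0.0818), sh-B7-H3 (1) replicate 1 (0.11, adjusted p = 0.285) or sh-B7-H3 (1) replicate 2 (0.12, adjusted p = 0.286). In the control libraries the order of Jun was Cd4 low, Cd8 low, Foxp3 low, Cd8 high and Cd4 high, and no neighbours in that order overlapped. The order of Fos began with Cd4 low (56.0 and 53.4) and Foxp3 low (53.5 and 47.6), which overlapped.

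Single cells were compared at equal depth, by drawing 1000 UMIs from each cell. Cells with fewer UMIs were left out, in Cd4 cells with low Ccl5 3 and 0 in control and 11 and 23 in knockdown libraries. The share of Cd4 cells with low Ccl5 that held a Cd69 UMI was 17.2% ± 0.281 (SD, n = 2) in control and 7.71% ± 0.931 in knockdown libraries. The share with a Jun UMI was 26.6% ± 0.899 in control and 17.3% ± 0.791 in knockdown libraries. For Fos the shares in that class were 3.59% and 4.38% in control and 2.26% and 3.00% in knockdown libraries. In Cd8 cells with low Ccl5, Cd69 was found in 14.2% and 13.9% against 7.65% and 8.68%. With 2 libraries a group an exact two-sided permutation test cannot go below p = 0.333, which each of these comparisons reached. In Cd4 cells with low Ccl5, 7 members had both knockdown shares under both control shares, and in Cd8 cells 7. This count was not made over all genes, so how common the pattern is among them is not known. Without thinning, at median depths of 7621 and 8105 UMIs in control and 6817 and 6997 in knockdown libraries, the Cd69 shares in Cd4 cells with low Ccl5 were 56.7% and 56.9% against 36.6% and 34.2%.

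**Figure D4:**
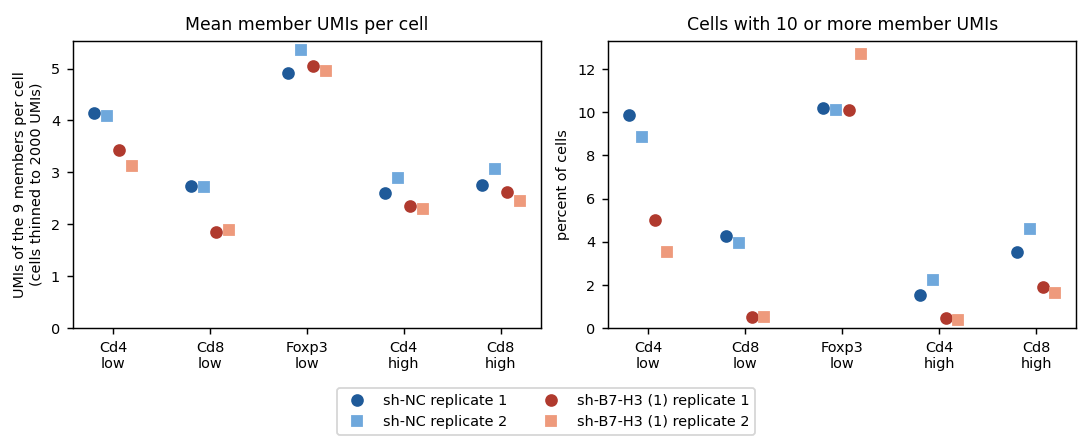
Mean UMIs of the 9 members per cell (left) and percent of cells with 10 or more member UMIs (right), in cells thinned to 2000 UMIs, by class and library. The percent is 9.89 and 8.84 in control against 5.00 and 3.53 in knockdown libraries in Cd4 cells with low Ccl5, and 4.27 and 3.95 against 0.528 and 0.502 in Cd8 cells.

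Cells rich in these messages made up a smaller share of cells in the knockdown libraries of all 4 Cd4 and Cd8 classes, in some from few cells. At 2000 UMIs per cell, Cd8 cells with low Ccl5 held a mean of 2.74 and 2.71 member UMIs in control and 1.86 and 1.89 in knockdown libraries. The share of those cells with 10 or more member UMIs was 4.27% and 3.95% in control and 0.528% and 0.502% in knockdown libraries. For Cd4 cells with low Ccl5 this share was 9.89% and 8.84% against 5.00% and 3.53%, and the share with no member UMI was 10.9% and 11.4% against 13.9% and 14.5%. With high Ccl5 the share with 10 or more was 1.52% and 2.22% against 0.493% and 0.390% in Cd4 cells. For Cd8 cells it was 3.51% and 4.59% against 1.91% and 1.63%. The Cd4 shares with high Ccl5 rest on a few cells per library, from classes of 132, 135, 406 and 514 cells. So do the knockdown shares of Cd8 cells with low Ccl5, from 382 and 602 cells. In Foxp3 cells with low Ccl5 the share with 10 or more was 10.2% and 10.1% against 10.1% and 12.7%, so the groups met (exact two-sided permutation p = 0.667). For the Cd4 and Cd8 values the exact p was 0.333, the smallest this design allows. Within libraries the members were weakly tied from cell to cell. Over the 36 pairs the Spearman correlation in Cd4 cells with low Ccl5 ran from 0.021 to 0.202 (mean 0.098), highest for Jun and Junb, and is given as a description, since the cells share a library and sparse counts.

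Other sources of these messages were measured in the same libraries. In macrophages, cells with at least 10 C1q UMIs and no Cd3 UMI (20, 21, 74 and 55 cells), Jun stood at 354 and 312 in control and 130 and 154 in knockdown libraries. Cd69 in macrophages stood at 15.0 and 29.0 against 16.9 and 23.1. In free RNA, taken from uncalled barcodes with 10 to 100 UMIs, Jun stood at 275 and 304 against 180 and 211 and Cd69 at 169 and 183 against 118 and 150 CPM. If all C1qa, C1qb, C1qc and Apoe UMIs of the T cells were free RNA, free RNA would make up 2.56% to 8.68% of a control and 4.00% to 11.1% of a knockdown class, outside Foxp3 cells with high Ccl5. No cell type in these libraries is known to lack the members, so no background share of cells could be set.

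The CD69 protein was read by an antibody tag in the same cells. The tag's count relative to the mean of 9 isotype control tags was 10.6 and 10.9 in control and 10.6 and 10.3 in knockdown libraries in Cd4 cells with low Ccl5. Over the 5 larger classes it ran from 10.3 to 11.7, while Cd69 RNA ran from 45.5 to 287 CPM. For comparison the CD38 tag, scaled likewise, was 17.9 and 16.7 in Cd4 cells with low and 576 and 606 in those with high Ccl5 of the control libraries. Within Cd4 cells with low Ccl5 the CD69 ratio was 10.5, 10.9, 10.6 and 10.2 in cells with no Cd69 UMI at 2000 UMIs. In those with 2 or more (186, 119, 14 and 25 cells) it was 10.8, 11.4, 12.0 and 11. For Cd8 cells with low Ccl5 the ratios were 10.8, 10.4, 10.9 and 10.4 with no Cd69 UMI. With 2 or more (127, 103, 14 and 12 cells) they were 8.53, 11.1, 11.8 and 9.56, so the libraries did not move in 1 direction.

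Tested among 197 tags, CD69 was higher in the knockdown libraries by 0.17 on the log2 scale in Cd8 cells with low Ccl5 (edgeR adjusted p = 0.0101), where 30.5% of tags were called higher. It was higher by 0.21 in Cd4 cells with high Ccl5 (adjusted p = 0.0174, 20.3% of tags) and by 0.17 in Cd8 cells with high Ccl5 (adjusted p = 0.032, 25.4% of tags). The last call was lost with a replicate block (adjusted p = 0.0852). Both calls in cells with high Ccl5 were lost without sh-NC replicate 2 (adjusted p = 0.0706 in Cd4 and 0.139 in Cd8 cells), sh-B7-H3 (1) replicate 1 (0.115 and 0.112) or sh-B7-H3 (1) replicate 2 (0.109 and 0.135). The tag in Cd4 cells with low Ccl5 was not called (0.10, adjusted p = 0.0967), nor in Foxp3 cells with low Ccl5 (0.16, adjusted p = 0.151). Whether the tag read the protein over its own background was not tested.

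**Figure D5:**
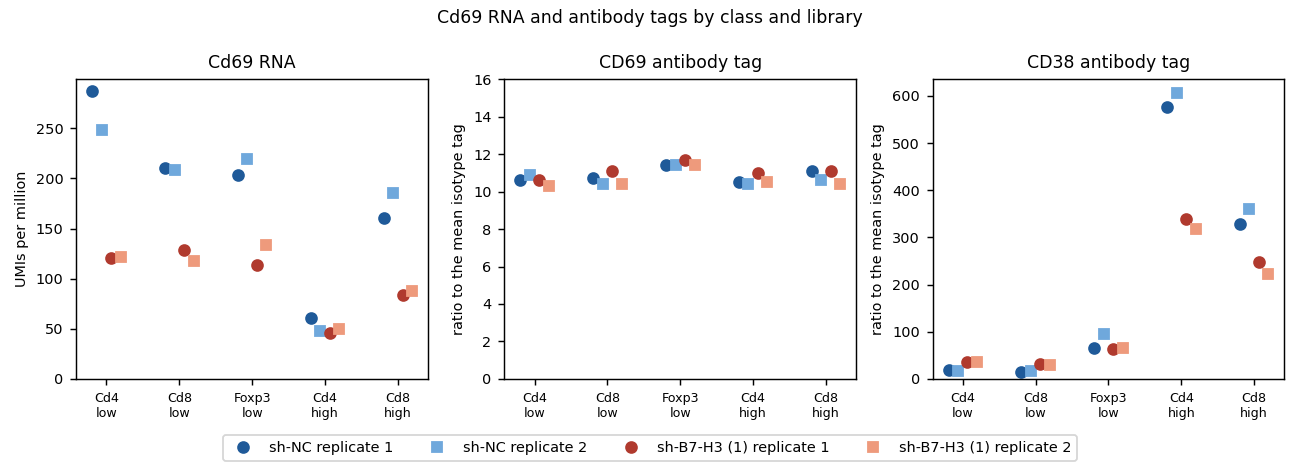
Cd69 RNA in CPM (left) and the counts of the CD69 and CD38 antibody tags relative to the mean isotype tag (middle and right), by class and library. Cd69 RNA spans 45.5 to 287 across classes while the CD69 tag stays between 10.3 and 11.7, and the CD38 tag rises in the classes with high Ccl5.

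Counts of related genes called in Cd4 cells with low Ccl5 stand beside the 4.69% of all genes called lower and 5.81% called higher there. Of 13 other AP-1 and ATF family genes tested in Cd4 cells with low Ccl5, 1 was lower in the knockdown libraries, Maff (-1.82), and 5 were higher, namely Nfil3 (1.13), a repressor of the same zipper class, Maf (0.83), Fosl2 (0.79), Crem (0.63) and Atf2 (0.38). Maff rested on 3 UMIs in each knockdown library and Nfil3 on 10 to 26 UMIs per library. Maf was lower with the knockdown in Cd4 cells with high Ccl5 (-1.05, edgeR adjusted p = 1.01e-16). It was higher in Foxp3 cells with low Ccl5 (0.43) and not called in Cd8 cells with low or high Ccl5. Of 17 other immediate-early genes 2 were lower, Ier2 (-0.32) and Mcl1 (-0.14), and 2 higher. Nr4a2, an orphan nuclear receptor induced by receptor signals, rose from 3.25 and 4.50 to 15.6 and 14.9 (log2 fold change 2.01, SE 0.239, edgeR adjusted p = 1.92e-09). It also rose in Cd8 cells with low (2.31) and high Ccl5 (0.86). With the knockdown it was not called in Cd4 cells with high Ccl5 (0.18, edgeR adjusted p = 0.367). Between Ccl5 states of Cd4 cells it was higher with high than with low Ccl5 (4.75), opposite to Jun and Fos. Gadd45b (0.59) was the other. Egr1, chosen after its values were seen as the best-known gene of the list, was not called in Cd4 (0.01, SE 0.0894) or Cd8 (0.03, SE 0.105) cells with low Ccl5. Of 14 upstream kinases and serum response genes 1 was called, Mapk14 (0.40), which encodes the stress kinase p38α.

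Of 6 mRNA decay genes 2 were lower in Cd4 cells with low Ccl5, Zfp36l2 (-0.55, SE 0.0498) and Zfp36 (-0.22), whose proteins bind AU-rich messages such as that of Fos, and none was higher. Both were also lower in Cd8 cells with low Ccl5 (-0.49 and -0.35). Of 6 MAP kinase phosphatases Dusp2 was lower (-0.40) and Dusp6 higher (0.51). Of 8 genes of NF-κB feedback Nfkbia (-0.33) and Rel (-0.32) were lower and Nfkbid (0.39) higher. Of 7 Kruppel-like factors Klf3 (-0.37) and Klf2 (-0.23), a gene of resting T cells, were lower and Klf10 (0.62) higher. In Cd8 cells with high Ccl5, Klf2 was lower by far more (-2.04, SE 0.104, edgeR adjusted p = 1.06e-14).

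Of 5 glucocorticoid response genes 2 were lower, Tsc22d3 (GILZ), from 190 and 193 to 103 and 105 in Cd4 cells with low Ccl5 (-0.85, SE 0.0631, edgeR adjusted p = 1.62e-16), and Ddit4, from 135 and 144 to 75.0 and 81.3 (-0.80). Tsc22d3 was lower in Cd8 cells with low (-0.96) and high Ccl5 (-1.25) too. Of 7 integrated stress response genes the called ones were Ddit4 and the chaperone gene Hspa5 (-0.26), both lower, and Atf4, its central factor, was not called in Cd4 cells (0.22, adjusted p = 0.0948) but was higher in Cd8 cells with low (0.30, adjusted p = 0.015) and high Ccl5 (0.36, adjusted p = 0.0127). Of 11 heat shock genes 3 were lower, Hsp90ab1 (-0.26), Hspa8 (-0.16) and Hspe1 (-0.12), and 3 higher, Hspa1b (0.57), Hsp90aa1 (0.25) and Dnaja1 (0.21). Hspa1b had the opposite sign in Cd8 cells with low Ccl5 (-0.48, SE 0.0871). Among genes of residency and egress, Cxcr4 (-0.59) and Ccr7 (-0.31) were lower and Itgae (1.54), the CD103 integrin chain, and Cd44 (0.54) higher. S1pr1, which encodes the receptor that CD69 antagonises, was not called (0.02, SE 0.0507). Itgae rested on 19 to 24 UMIs per library in Cd4 cells with low Ccl5. It was not called in Cd4 cells with high Ccl5 (-1.04, edgeR adjusted p = 0.156) and was higher in Foxp3 cells with low Ccl5 (0.71, adjusted p = 0.0148).

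Over the 24 sums of library and class, the genes whose log2 levels were most like the mean of the 9 standardised members were Pnrc1 and Sp3 (Pearson r = 0.888 each), Resf1, Zfp36 (0.832), Bcl11b, Fam104a, Arid4b, Senp6, Cdipt and Ash1l. The correlations are a description, since the sums share 4 libraries and cells. Pnrc1, a coregulator of nuclear receptors, stood at 411 and 400 in control and 317 and 330 in knockdown libraries in Cd4 cells with low Ccl5 (-0.29, edgeR adjusted p = 4.1e-07), and Resf1 was also lower there (-0.38). Sp3 (-0.07), Bcl11b (-0.11) and Fam104a (0.07) were not called. Among the members, Fos followed the mean of the other 8 most closely (r = 0.911), then Cd69 (0.819) and Jun (0.776), and Jund (0.495) and Klf6 (0.488) least.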

How the data were processed

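Polyadenylated RNA and surface antibody tags were counted in the same T cells. The authors aligned reads with Cell Ranger to mm10 and deposited UMI counts per gene, tag and barcode, with no normalization. The filtered file headers name version 6.1.1 and the raw ones version 4. Seurat 4.0.0 is in the submitters' notes. From the deposited counts, cells with 200 to 3000 genes and at most 5% mitochondrial UMIs were kept. Doublets were marked by similarity to simulated pairs, which removed 17.2% to 20.4% of cells. A cell also had at least 1 Cd3 UMI and at most 2 UMIs of other cell types' genes, with at most 2 Cd8 UMIs in Cd4 or Foxp3 cells and no Cd4 or Foxp3 UMI in Cd8 cells.

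UMIs were summed per library and class (24 sums) and tested by edgeR 4.0.16 (TMM, quasi-likelihood, Benjamini-Hochberg over all genes passing its count filter). Levels are CPM (UMIs relative to the total) after TMM scaling over the 24 sums, except in Ccl5 bins, macrophages and free RNA, which are unscaled. State and lineage fits had the library as a block. DESeq2 1.42.0 was an alternative. On simulated counts the fit called 73.1% of genes changed by 2-fold in the knockdown comparison of Cd4 cells with low Ccl5 (1.95% of all calls were false), and 73.1% in their Ccl5 comparison, where 14.3% of calls were false.

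The members and gene lists were chosen with earlier results of these data known. All members were named, with the 10 genes most like them among those with a mean of at least 50 CPM, and from each list up to 3 genes with the largest change among those called in Cd4 cells with low Ccl5. Other genes of a list were named where a count of 5 or fewer needed it. Mcl1, Ccr7, Atf4, S1pr1, Fosl2, Crem, Atf2, Hspa8, Hspe1, Dnaja1 and Egr1 lie outside that rule and were chosen after their values were seen. Gene positions are from GENCODE vM21 (GRCm38). Confidence intervals were not used, and p-values cover the spread between these libraries. For 1 gene of the lists, its values and the sums and choices of cells that use it are not reported here.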

Additional observations from a re-analysis of the deposited data

Results flagged for a closer look

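The 7 results here are changes with the knockdown that differed between classes of cells by a test of the difference itself (edgeR, adjusted p under 0.05). In Cd4 cells the Cd69 change was 0.91 higher, on the log2 scale, with high than with low Ccl5, from -1.11 to -0.20. In Cd8 cells the change was higher with high Ccl5 by 0.75 for Jun (from -1.06 to -0.30), by 0.44 for Junb (from -0.36 to 0.08) and by 0.36 for Jund (from -0.27 to 0.10). The opposite held for Fosb, with a difference of -1.03 (from -0.15 to -1.17). Among cells with low Ccl5 the Junb change was -0.41 in Cd8 relative to Cd4 cells, and the Jund change 0.41 in Foxp3 relative to Cd4 cells. Adjusted p lost the threshold on leaving out 1 library for Fosb, for Junb between lineages and for Jund between lineages, with values given beside each result.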

How the results depend on the processing

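The counts of members called lower with the knockdown were 7 in Cd4 and 8 in Cd8 cells with low Ccl5. DESeq2 called 5 in Cd8 cells with low, 2 in Cd8 cells with high and 0 in Cd4 cells with high Ccl5. It gave no adjusted p to Fos and Dusp1 in Cd8 cells with low Ccl5, or to Dusp1 and Fosb in Cd4 cells with high Ccl5. In Cd8 cells with high Ccl5, Jun (adjusted p = 0.155) and Dusp1 (0.389) were not called, and the rest of the fall was a missing adjusted p. With cells thinned to 1000 UMIs the knockdown counts were 2 (Cd4 low), 5 (Cd8 low), 0 (Foxp3 low), 0 (Cd4 high) and 1 (Cd8 high). In Cd4 low the members that lost their call had log2 fold changes of -0.75 (Fos), -0.62 (Dusp1), -0.58 (Ppp1r15a), -0.22 (Klf6) and -0.09 (Jund). The Ccl5 comparison then gave 5 lower in Cd4 and 0 in Foxp3 cells, its knockdown difference 0 in Cd4 and 1 in Cd8 cells, and the lineage comparison 1 lower and 1 higher in Foxp3 cells, with 0 lineage differences in Cd8 and 0 in Foxp3 cells. A fold limit of 1 on the log2 scale left 1, 3, 0 and 3 (Cd4 low, Cd8 low, Foxp3 low, Cd8 high). The share of all genes called was taken in the main fits only. The counts under other settings, here and below, thus have no such share beside them.

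In Cd4 cells with high Ccl5 the count of 2 was 1 with mitochondrial UMIs up to 10%, with no UMI of the other lineage, at a Ccl5 limit of 10 or 40 and with no macrophage or B cell UMI. In Foxp3 cells with low Ccl5 the count of 1 was 2 with no doublet removal or no upper gene limit, and 0 with a replicate block. The Ccl5 comparison of Foxp3 cells gave 4 with mitochondrial UMIs up to 10% or no low-count filter and 1 with no upper gene limit or no UMI of the other lineage. The knockdown difference between Ccl5 states in Cd4 cells gave 3 with no doublet removal and 2 with no upper gene limit or at a Ccl5 limit of 40. The lineage difference in Cd8 cells gave 5 with no doublet removal, 4 with mitochondrial UMIs up to 10% or no UMI of the other lineage, and 2 at a Ccl5 limit of 40 or with no macrophage or B cell UMI. In Foxp3 cells it gave 2 with mitochondrial UMIs up to 10% or at a limit of 40, and 0 with no UMI of the other lineage. The cause was not tested.

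In Foxp3 cells with low Ccl5, 1 member had both knockdown shares of cells under both control shares with the main thinning and doublet removal. The count was 2 at 2000 UMIs, 2 without thinning and 3 with no doublet removal. In Cd4 cells with high Ccl5 it was 4 with the main settings and 7 with no doublet removal. These counts were not made over all genes, so how common the pattern is among them is not known. The Jund share in Cd4 cells with high Ccl5 differed by -2.89 points with the main thinning, and by 2.85 at 2000 UMIs.

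Leaving out 1 library each gave 0 to 1 lower in Foxp3 low and Cd4 high, 2 to 5 lower and 0 to 1 higher in Cd8 high, 1 to 6 in the Ccl5 comparison of Foxp3 cells, 1 to 3 and 0 to 1 knockdown differences between Ccl5 states in Cd4 and Foxp3 cells, and 0 to 4 and 0 to 1 between lineages in Cd8 and Foxp3 cells. The CD69 tag change was 0.17 to 0.22 in Cd4 and 0.11 to 0.20 in Cd8 cells with high Ccl5. The replicate numbers share only a number (correlation of deviations 0.0364 in Cd4 and -0.146 in Cd8 cells with low Ccl5, 2325 genes). A replicate block gave 7, 8, 0, 3 and 5 members lower in Cd4 low, Cd8 low, Foxp3 low, Cd4 high and Cd8 high, and a CD69 tag change of 0.17 (adjusted p = 0.0852) in Cd8 cells with high Ccl5. Crossed numbers, an alternative chosen after seeing the data, gave 7, 8, 1, 2 and 5.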
